A study of Mus musculus with 9 samples.

Results

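Spinal motoneurons of injured mice that had received electrical stimulation were compared with motoneurons of uninjured, sham-operated mice. The contrast rests on 6 of the 9 libraries of the study, 3 labelled SBES and 3 labelled sham, and it was read across all 15893 genes that passed a filter on low counts, out of 55401 in the deposited table. SBES stands for synergistic bidirectional electrical stimulation. The mice were wild type in every group. Sham mice carried no treatment in the labels, untrained mice had a spinal cord injury, and SBES mice had the injury and the stimulation, at 10, 15 and 20 Hz in SBES libraries 1, 2 and 3. Each frequency is therefore held by 1 library, and a difference of frequency cannot be told apart from a difference between libraries. The tissue was taken 4 weeks after injury. The cells carried a fluorescent label called TRDA, were drawn out of fresh spinal cord slices with glass electrodes, and were profiled by Smart-seq2, which reads full-length cDNA from very little RNA. The labels name 3 mice per group without tying a library to a mouse, give no number of cells per library and state no age, so the p-values reflect how much these libraries vary, which may in part be technical.

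As background, spinal motoneurons are the cholinergic cells that drive skeletal muscle, and a cord injury removes much of the descending input to them while leaving their axons in the periphery in place. Glucocorticoids are steroid stress hormones whose receptor enters the nucleus and switches on a well-known set of genes, many of which restrain growth, inflammation and anabolic metabolism. Neuronal activity switches on another set, the immediate early genes, through calcium and cAMP signalling.

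Total counts in the 6 libraries ran from 11821145 to 17675948, and 21791 to 23929 genes had a count. Sham 1 and SBES 1 stood apart from the other 4 on the first principal component (34.5% of the variance), which did not separate the groups, while the second (26.4%) placed the SBES libraries from -0.31 to 53.6 and the sham libraries from -41.3 to -20.6. The share of counts from mitochondrially encoded genes was 18.6% in SBES 1 and 2.47% to 7.36% in the other 5. The labelled cell type was present but not alone. Chat, the acetylcholine-synthesising enzyme, stood at 19.6, 34.6 and 34.5 CPM (library counts scaled to a common total) in sham libraries 1 to 3 and at 21.5, 22.5 and 33.8 in SBES, with overlapping groups. The myelin gene Mbp took 4.49% to 6.85% of the counts of each library. In such mixed samples, fewer cells of a type and less RNA per cell cannot be told apart.

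Of the 15893 genes tested, 55 passed an adjusted p of 0.05 in edgeR's quasi-likelihood test with Benjamini-Hochberg adjustment, which is 0.346% of them. Expression was higher in SBES for 43 (0.271%) and lower for 12 (0.0755%). The 3 SBES libraries lay outside the range of the 3 sham libraries in all 55, a separation that 13.8% of all genes tested also had. Among the 43 higher genes the log2 fold change had a median of 2.45 and ran from 1.32 to 9.06, and among the 12 lower genes it had a median of -2.21 and ran from -3.47 to -1.28. Over all genes tested the median was -0.0018 and 49.8% were positive. With the replicate number as a block, 132 genes passed, 91 higher and 41 lower, and they included all 55. DESeq2 called 300 genes, 73.7% of them higher. Without the number 1 libraries of all groups, a fit chosen after the data were seen, 581 of 16210 genes passed. Of those 80% were higher. Counts given below for a list under these settings stand against these totals. Removing 1 library could end most of the calls: 4 genes passed without SBES 3, 6 without Sham 2 and 0 without Sham 3, where the smallest adjusted p was 0.0945 and 974 genes had an unadjusted p under 0.05.

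**Figure D1:**
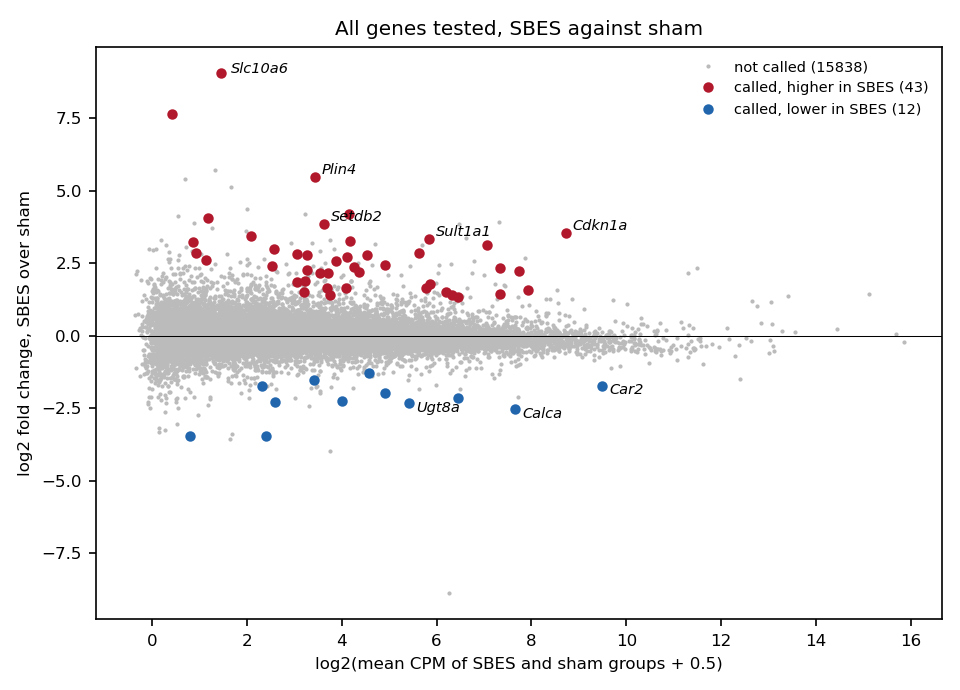
Each point is 1 of the 15893 genes tested, with the mean level of the SBES and sham groups as log2(CPM + 0.5) on the horizontal axis and the log2 fold change of SBES over sham on the vertical axis. The 43 genes called higher are red and the 12 called lower are blue, and the grey cloud of uncalled genes is centred on 0. Some uncalled genes lie further from 0 than some called ones, such as Lcn2 at 3.93. The grey point near the bottom, a predicted gene, was not called.

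Of 58 gene lists the one with the most calls was the glucocorticoid target list, a set of genes known to be induced by the glucocorticoid receptor. Of its 29 tested members 13 rose, 0 fell, and 28 had a positive log2 fold change, with a median of 2.22 against -0.0018 over all genes. The 3 SBES libraries were all above the 3 sham libraries in 24 of the 29, against 7.1% of all genes tested (6.73% had all SBES libraries below sham). An unadjusted p under 0.05 with a higher level was reached by 25 of the 29, against 5.7% of all genes. Members were listed with earlier results of these data known, so the count describes these libraries and is not independent evidence. With the replicate block 19 members passed. Without SBES 3 only Hif3a and Sult1a1 did, and without Sham 3 none did, while the list's median stayed between 1.91 and 2.50 whichever of the 6 libraries was left out.

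Sult1a1, a cytosolic sulfotransferase of phenols and catechols (chr7:126672865-126676432, mm10), stood at 6.97, 14.0 and 9.38 CPM in sham libraries 1 to 3 and at 69.9, 126 and 115 CPM in SBES. Every SBES library was above every sham library, and the log2 fold change was 3.35 ± 0.39 (standard error, SE; edgeR adjusted p = 0.00953). Hif3a, a hypoxia-inducible factor subunit that can restrain the other subunits, was low in sham at 0.872, 0.698 and 0.382 CPM. In SBES it stood at 6.91, 6.38 and 7.17 CPM, and its log2 fold change was 3.43 ± 0.39 (edgeR adjusted p = 0.00953). The SBES values of Hif3a lay close together at all 3 frequencies. Plin4, a protein of lipid droplets, rose most of this list. It went from 0.545, 0.444 and 0.382 CPM in sham to 14.7, 16.7 and 28.9 in SBES, a 44.5-fold difference (log2 5.48 ± 0.75, edgeR adjusted p = 0.0149).

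Several of the genes that rose brake growth or inflammatory signalling. Cdkn1a encodes p21, an inhibitor of cyclin-dependent kinases (chr17:29090976-29100727). It stood at 55.7, 65.6 and 80.0 CPM in sham and at 436, 377 and 1517 CPM in SBES, an 11.6-fold difference (log2 3.53 ± 0.61, edgeR adjusted p = 0.0366). The groups were far apart, and SBES 3 was well above the other SBES libraries; without it the log2 fold change was 2.60. Ddit4, an inhibitor of the mTORC1 growth kinase, measured 5.56, 5.52 and 7.14 CPM in sham and 39.0, 22.7 and 32.4 in SBES (log2 2.36 ± 0.30, edgeR adjusted p = 0.0149). Nfkbia, the inhibitor that holds NF-kappaB in the cytoplasm, rose from 79.5, 86.8 and 57.9 CPM to 269, 223 and 553 (log2 2.22 ± 0.34, edgeR adjusted p = 0.0268). It was the only called member of the 26 tested NF-kappaB pathway genes, whose median log2 fold change was 0.21.

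Other regulators of transcription on the list rose too, among them Klf9, Klf15, Per1 and Zbtb16. Klf9 is a zinc finger factor that in neurons is known to limit axon growth. It measured 40.1, 43.1 and 46.0 CPM in sham and 127, 84.3 and 135 in SBES, 2.67-fold higher (edgeR adjusted p = 0.0339). Klf15, a regulator of amino acid and lipid use, was 3.44-fold higher, and the lowest SBES library (69.9 CPM) was above the highest sham library (33.7). Per1, a repressor of the circadian clock, was nearly level in sham at 1.63, 1.71 and 1.58 CPM and stood at 12.4, 7.56 and 6.56 in SBES, so that here SBES 1 was highest. Of 21 clock genes tested Per1 alone passed; Nr1d1 and Nfil3 were next, 1.98-fold and 2.06-fold higher with edgeR adjusted p of 0.113 and 0.126, and Nr1d1 passed with the replicate block (adjusted p = 0.0461). Zbtb16, a repressor also called PLZF, stood at 5.34, 3.74 and 4.14 CPM in sham and at 18.4, 17.9 and 50.7 in SBES. The other called members were the arrestin-domain gene Arrdc2 (7.30-fold), the kinase gene Map3k6 (7.90-fold) and Zfp36, whose product speeds the decay of cytokine mRNAs (4.45-fold).

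Members that did not pass came close in several cases. Fkbp5, a chaperone that dampens the receptor and a standard reporter of its activity, measured 7.08, 12.8 and 9.49 CPM in sham and 49.9, 38.1 and 65.5 in SBES, 5.2-fold apart without overlap, at an edgeR adjusted p of 0.0546. With the replicate block its adjusted p was 0.0147. Sgk1, a kinase of ion transport, varied widely in sham at 33.2, 132 and 20.7 CPM and measured 383, 306 and 511 in SBES (log2 2.69 ± 0.58, edgeR adjusted p = 0.0864; 0.0319 with the block). Cebpd, a transcription factor of the acute phase, stood at 7.63, 16.2 and 7.58 CPM in sham and at 42.1, 36.8 and 194 in SBES (edgeR adjusted p = 0.0593; 0.0319 with the block). Tsc22d3, also called GILZ and another standard target, overlapped between the groups, at 155 to 445 CPM in sham and 332 to 775 in SBES (log2 0.72 ± 0.46). The only negative member was Ccdc117 at -0.34. Fkbp5, Sgk1, Tsc22d3 and Ccdc117 were chosen for mention after their values were seen.

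Promoter windows of 250 bases upstream of the RefSeq start site (GRCm38.p6) are shown for Sgk1 and Klf9, members of the list that held a motif searched for, with the match in capitals. Mt2 (AP-1 pattern), Dusp1 and Errfi1 (both the cAMP response element TGACGTCA) also held a motif and are not shown. Sgk1 holds a glucocorticoid response element at -189 from the start site. Klf9 holds a forkhead site (GTAAACA) at -100, followed at -89 by TGAATCA. The latter matches the AP-1 pattern searched, TGANTCA, which allows any middle letter.
Sgk1 chr10:21993640-21993889, plus strand: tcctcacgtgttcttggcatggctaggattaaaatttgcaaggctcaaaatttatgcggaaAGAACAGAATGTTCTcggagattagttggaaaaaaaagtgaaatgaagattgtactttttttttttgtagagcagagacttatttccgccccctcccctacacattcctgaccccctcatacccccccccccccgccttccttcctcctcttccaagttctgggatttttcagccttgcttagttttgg
Klf9 chr19:23140976-23141225, plus strand: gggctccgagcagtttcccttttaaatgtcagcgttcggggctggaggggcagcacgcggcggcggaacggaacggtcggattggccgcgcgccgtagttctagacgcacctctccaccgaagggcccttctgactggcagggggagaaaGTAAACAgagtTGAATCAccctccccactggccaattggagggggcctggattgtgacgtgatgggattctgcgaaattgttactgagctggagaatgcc
The glucocorticoid response element searched was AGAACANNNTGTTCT, a palindrome, on both strands of windows from 250 bases before to 50 after the start site. It was found in 1 of 24 list members with a window (4.17%), in 0 of 34 called higher genes with a window and in 3 of 27025 genes of the whole promoter table (0.0111%). The forkhead site was in 1 of the 34 (2.94%), against 3.11% of the genes tested and 4.05% of the table. Such matches describe the letters of these windows only.

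**Figure D2:**
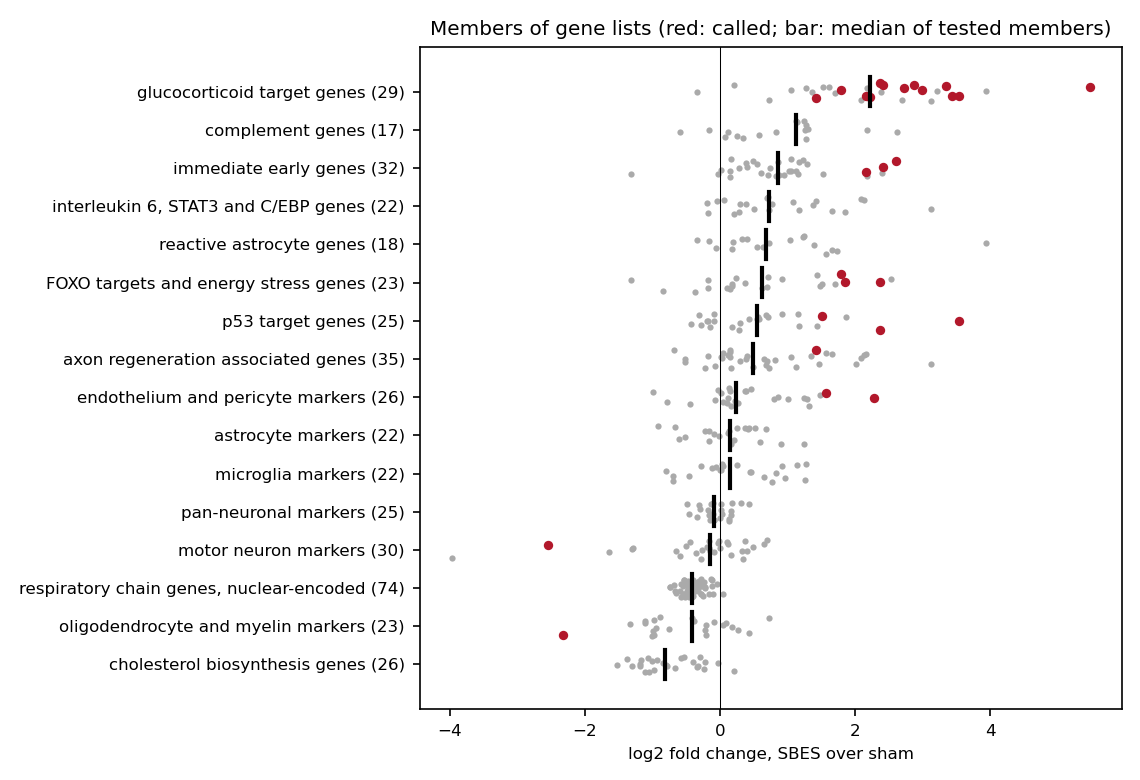
Log2 fold change of SBES over sham for the tested members of 16 gene lists, 1 point per gene, with called genes in red, the list's median as a black bar and the number of tested members in brackets. The glucocorticoid target genes have the highest median of the 16 (2.22) and the cholesterol biosynthesis genes the lowest (-0.82); the vertical spread of points has no meaning.

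Lists that share members with the glucocorticoid targets also held calls. Among 25 tested p53 targets Cdkn1a, Ddit4 and Fas rose and 17 were positive (median 0.54, or 0.42 without shared members). Fas, a death receptor of the tumour necrosis factor family, measured 4.14, 4.63 and 4.85 CPM in sham and 9.58, 15.9 and 13.4 in SBES, 2.85-fold higher (edgeR adjusted p = 0.0442). Among 23 FOXO targets and energy stress genes Ddit4, Klf15 and Foxo3 rose (median 0.62, or 0.31 without shared members). Foxo3, a transcription factor that Akt keeps out of the nucleus, went from 3.81, 2.79 and 3.60 CPM to 8.25, 11 and 17.4. Among 21 hypoxia response genes Hif3a, Ddit4 and Slc2a1 rose, while the median of the list was 0.16 and 14 were positive.

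Immediate early genes, which respond to synaptic input and calcium, were higher on balance. Of 32 tested, Per1, Maff and Zfp36 rose, 0 fell and 30 were positive, with a median log2 fold change of 0.86 that lay between 0.66 and 1.14 when any 1 of the 6 libraries was left out. Without the members shared with the glucocorticoid list it was 0.83. Maff, a small Maf factor without a transactivation domain, was low throughout, at 0.436, 0.317 and 0.654 CPM in sham and 2.34, 2.43 and 4.02 in SBES (log2 2.61 ± 0.46, edgeR adjusted p = 0.0399). Fos, the gene most used to mark recent activity, had a log2 fold change of 0.28 and overlapping groups. The 2 negative members were Arc and Klf10, the latter at -0.02 with a sign that depends on the processing. Arc, which acts at active synapses, stood at 19.7, 20.2 and 19.6 CPM in sham and at 3.68, 7.42 and 12.4 in SBES, without overlap and against the direction of the list (log2 -1.32 ± 0.35, edgeR adjusted p = 0.16). DESeq2 called 4 members higher and Arc lower (adjusted p = 0.0278). Arc and Klf10 are named because they were the exceptions. The promoter window of Maff is shown because it alone of the 34 called higher genes with a window (2.94%, against 3.51% of the genes tested and 2.03% of the table) held a full cAMP response element, TGACGTCA, in capitals at -29 from the start site.
Maff chr15:79347270-79347519, plus strand: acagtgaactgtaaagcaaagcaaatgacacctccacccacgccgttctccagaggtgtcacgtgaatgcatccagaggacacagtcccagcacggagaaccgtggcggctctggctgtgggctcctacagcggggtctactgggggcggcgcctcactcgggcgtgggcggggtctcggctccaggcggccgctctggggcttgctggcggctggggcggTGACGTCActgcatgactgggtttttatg

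Outside all 58 lists stood 33 of the 55 called genes. Setdb2, of a family of histone lysine methyltransferases, separated the groups widely. It stood at 0.218, 2.73 and 1.42 CPM in sham and at 26.4, 11.2 and 29.0 in SBES, 14.4-fold higher (log2 3.85 ± 0.57, edgeR adjusted p = 0.0248), while the untrained libraries at 1.72, 1.95 and 1.99 lay inside the sham range. Phactr3, which binds actin and protein phosphatase 1 in neurons, went from 25.8, 31.4 and 25.1 CPM to 223, 128 and 361 (log2 3.11 ± 0.43, edgeR adjusted p = 0.0149). Itgad, the alpha D integrin of leukocytes, measured 2.29, 1.52 and 1.64 CPM in sham and 23, 33.9 and 41.1 in SBES, 18.2-fold higher. Exons of Itgad overlap other genes on both strands, from 1.55% of its exonic bases for Cox6a2 to 8.60% for 4931431B13Rik. The strand setting of the counting is not given in the sources used here, so these reads cannot be assigned with certainty. Of the 55 called genes 13 had some exon overlap, and 1, Phyhd1, had an overlap of at least 20% of its exonic bases.

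Slc10a6, a carrier of sulfated steroids, had 0 counts in all 3 sham libraries and stood at 2.79, 1.32 and 9.34 CPM in SBES. Set against a floor of 3 counts over the sham group, it was at least 64.6-fold higher, and the predicted gene Gm44969, also at 0 in sham, at least 24.1-fold. Ada, the enzyme that breaks down adenosine, was level in sham at 2.07, 1.90 and 1.91 CPM and measured 10.9, 11 and 19.2 in SBES, 6.99-fold higher. Hr, a corepressor of nuclear receptors, measured 2.72, 3.11 and 3.98 CPM in sham and 24.8, 34.8 and 36.1 in SBES (log2 3.27 ± 0.53, edgeR adjusted p = 0.0319). Sgk3, a kinase related to Sgk1, was 5.99-fold higher, Tma16, a factor of ribosome biogenesis, 6.91-fold, Rhoj, a small GTPase, 5.45-fold, Tspan4, a tetraspanin, 5.10-fold, and Tekt4, a tektin of cilia, 6.94-fold. The mechanosensitive channel gene Trpv4 rose 7.24-fold from under 0.5 CPM in each sham library, and Itga5, the fibronectin receptor integrin on the list of collagens, laminins and integrins, rose 9.49-fold from a sham range of 0.109 to 0.317 CPM. The other called higher genes, from 2.50-fold for Mapk4 to 16.7-fold for Ms4a4a, a membrane protein of macrophages, were Rnf125, Cirbp, Klf13, Dmwd, Fam214a and Spns2.

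Phyhd1, a dioxygenase gene, had the smallest p of all genes. It stood at 7.74, 7.24 and 6.60 CPM in sham and at 26.9, 36.0 and 36.8 in SBES, 4.63-fold higher with little spread in either group (log2 2.21 ± 0.24, edgeR adjusted p = 0.00953). It kept its call in 5 of the 6 fits that leave out 1 library. A predicted gene, Gm28035, covers 47.0% of its exonic bases on the same strand, so its counts are uncertain. Its promoter window is given because it holds an AP-1 site, TGACTCA, in capitals at -210. A match to the pattern TGANTCA, with any middle letter, was held by 4 of 34 called higher genes with a window (11.8%). The share was 6.27% of the genes tested and 8.97% of the promoter table.
Phyhd1 chr2:30266471-30266720, plus strand: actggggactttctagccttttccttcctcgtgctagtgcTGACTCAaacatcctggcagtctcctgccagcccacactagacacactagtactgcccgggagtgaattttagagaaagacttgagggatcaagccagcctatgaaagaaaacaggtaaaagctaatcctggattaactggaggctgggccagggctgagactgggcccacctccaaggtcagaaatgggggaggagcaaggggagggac

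**Figure D3:**
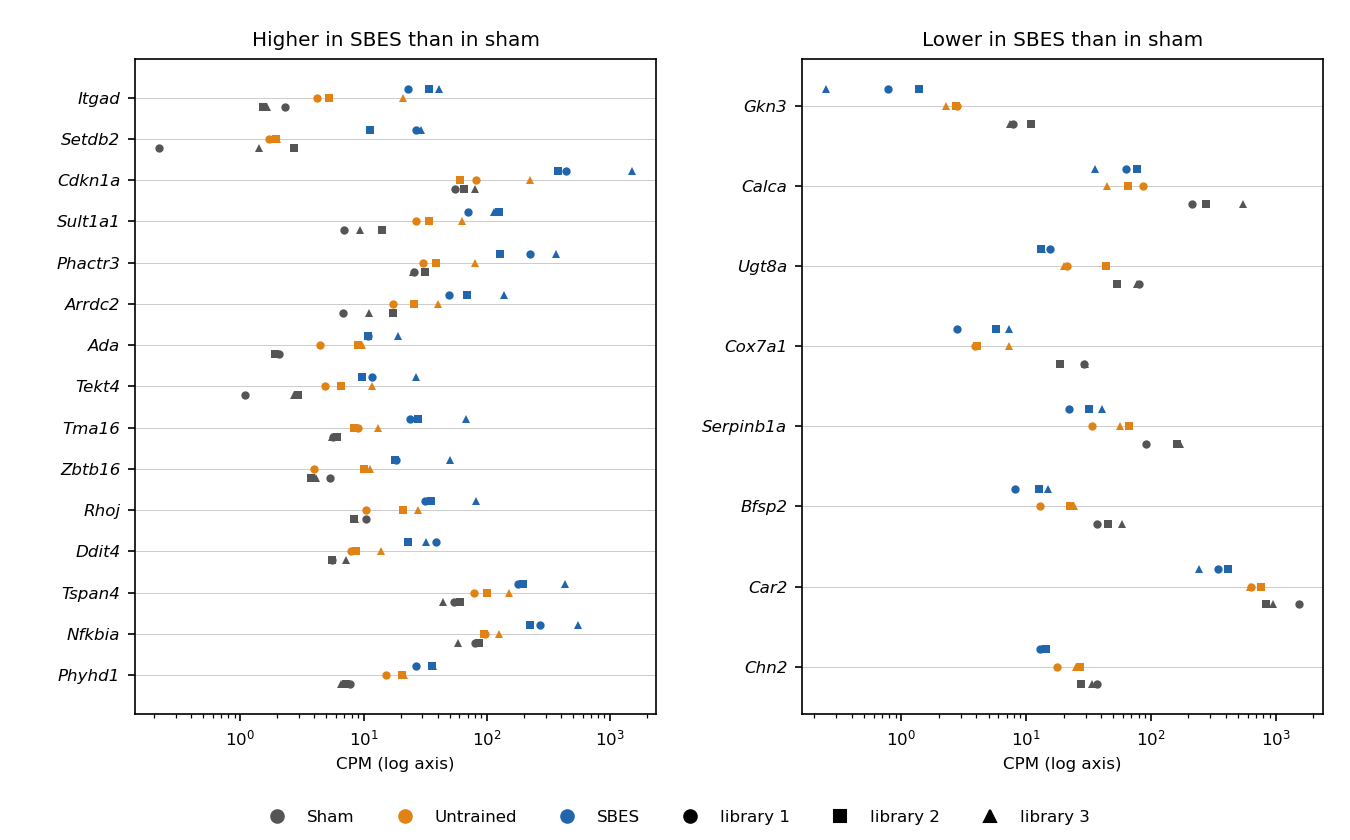
Level in CPM (log axis) of the 15 higher and 8 lower called genes with the largest fold changes among well-expressed genes, in sham (grey), untrained (orange) and SBES (blue) libraries, with circles, squares and triangles for libraries 1, 2 and 3. The SBES and sham points do not overlap for any gene shown, and most orange points lie between them.

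Some genes of blood vessels were among those that rose. Of 26 tested endothelium and pericyte markers Slc2a1 and Vwf passed, 0 passed as lower and 21 were positive, with a median of 0.24. The other 5 were negative, and the log2 fold changes of the list ran from -0.99 to 2.28. At an unadjusted p under 0.05 in edgeR there were 7 higher and 2 lower, against 5.7% and 3.61% of all genes tested. As values, the list's median was 0.53 in untrained against sham and -0.02 in SBES against untrained. With the block 5 rose, and 6 in DESeq2. Slc2a1, the glucose transporter GLUT1 of the blood-brain barrier and also a hypoxia target, measured 101, 145 and 120 CPM in sham and 282, 291 and 510 in SBES (2.96-fold, edgeR adjusted p = 0.0366). Vwf, the clotting protein stored in endothelial cells, went from 4.14, 3.87 and 1.42 CPM to 16.2, 16.4 and 12.7 (4.87-fold, edgeR adjusted p = 0.0442). Eng, a coreceptor for transforming growth factor beta on endothelium, was 3.16-fold higher, and Gata2, a transcription factor found in endothelial and blood cells among others, 4.51-fold. Eng and Gata2 are on none of the 58 lists, and which cells their reads came from was not tested. Ly6c1, another endothelial marker, was 2.38-fold higher at an edgeR adjusted p of 0.0852 (0.0297 with the block). The summed level of the 27 markers in the table was 1969 to 2599 CPM in sham and 2634 to 3465 in SBES, with none at 0 in any of the 6 libraries. In untrained the summed level was 2821 to 3603 CPM. The part of vessel content in these results was not tested.

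Among the genes that fell, Calca is the one on the motor neuron list. It encodes calcitonin gene-related peptide, which motoneurons and sensory neurons make (chr7:114631478-114636357). It stood at 213, 276 and 546 CPM in sham and at 63.7, 78.2 and 35.9 in SBES, without overlap (log2 -2.54 ± 0.41, edgeR adjusted p = 0.0287). The untrained libraries, at 87.3, 66.1 and 44.3 CPM, were at the SBES level. Uts2b, a urotensin II-related peptide of motoneurons, stood at 9.91, 34.5 and 28.7 CPM in sham and at 0.446, 3.12 and 0.928 in SBES (log2 -3.97 ± 0.82, edgeR adjusted p = 0.0677; 0.00143 with the block). Chodl, a marker of fast motoneurons, stood at 32.9, 44.4 and 36.5 CPM in sham and at 16.3, 14.7 and 15.2 in SBES (edgeR adjusted p = 0.139). Of the 30 tested markers Calca alone passed in edgeR, 20 were negative and the median was -0.16. At an unadjusted p under 0.05 in edgeR there were 6 lower and 2 higher, against 3.61% and 5.7% of all genes tested. DESeq2 called 4 lower, the replicate block 2 and the fit without the number 1 libraries 5, and none called a marker higher. Over all genes these settings called 300, 132 and 581, in either direction. The core cholinergic genes overlapped between the groups: Chat, Slc18a3 and Slc5a7 had log2 fold changes of -0.19, 0.17 and -0.45, none near the threshold, and the sign for Slc18a3 turned without Sham 1. The summed level of the motor neuron markers, Calca included, was 1675 to 2156 CPM in sham and 1025 to 1657 in SBES, without overlap. In untrained the sum was 780 to 1205 CPM. The part of motoneuron content in these results was not tested. Of the neuropeptide genes, Crh, corticotropin-releasing hormone, differed in the other direction, at 6.21, 0.952 and 0.981 CPM in sham and 23.4, 18.7 and 16.3 in SBES (edgeR adjusted p = 0.177; 0.0439 with the block).

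Genes of oligodendrocytes, the myelin-forming cells, made up part of the lower set. Ugt8a, the enzyme that makes the galactolipids of myelin (chr3:125865271-125938619), fell from 80.3, 53.4 and 77.9 CPM in sham to 15.6, 13.1 and 13.5 in SBES (log2 -2.33 ± 0.32, edgeR adjusted p = 0.0149). The SBES libraries of Ugt8a lay close together. Car2, a carbonic anhydrase abundant in oligodendrocytes and not on the list, went from 1550, 832 and 947 CPM to 349, 415 and 243 (log2 -1.73 ± 0.30, edgeR adjusted p = 0.037). Of 23 tested oligodendrocyte and myelin markers Ugt8a alone passed in edgeR, 17 were negative and the median was -0.41. At an unadjusted p under 0.05 in edgeR there were 8 lower and 0 higher, against 3.61% and 5.7% of all genes tested. DESeq2 called 4 lower, the replicate block 3 and the fit without the number 1 libraries 5. Those settings called 300, 132 and 581 of all genes, in either direction. Ermn and Gal3st1 were 0.463 and 0.5 times the sham level (edgeR adjusted p of 0.103 and 0.16; Ermn 0.0496 with the block), whereas Mbp overlapped between the groups and its sign turned without Sham 1. The summed level of the markers overlapped too, at 53973 to 114868 CPM in sham and 49610 to 80191 in SBES.

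The other genes that fell have varied known roles. Cox7a1, the heart and muscle form of a cytochrome oxidase subunit, stood at 28.9, 18.7 and 29.9 CPM in sham and at 2.79, 5.76 and 7.36 in SBES (log2 -2.26 ± 0.38, edgeR adjusted p = 0.036). Of the 6 tested muscle-type cytochrome oxidase genes it alone passed, Cox8b was 0.388 times the sham level and Cox6a2 6.2-fold higher, neither past the threshold in edgeR. Cox6a2 passed in DESeq2 (adjusted p = 0.00127) and without the number 1 libraries (edgeR adjusted p = 0.000807), and its exons overlap Itgad. Serpinb1a, an inhibitor of neutrophil proteases, fell from 92.1, 162 and 170 CPM to 22.2, 32.2 and 40.4. Bfsp2, a filament protein known from the lens, was 0.255 times the sham level, and Gkn3, of the gastrokine family, 0.0917 times, at 7.84, 11 and 7.41 CPM in sham and 0.780, 1.39 and 0.247 in SBES. Depdc7 was 0.206 times and Chn2, a GTPase-activating protein for Rac, 0.413 times the sham level. The remaining 3 were predicted or unnamed genes. Tppp, a tubulin polymerisation protein of oligodendrocytes, was just outside the threshold, at an edgeR adjusted p of 0.0521. It measured 57.3, 77.1 and 57.8 CPM in sham and 30.1, 29.3 and 27.9 in SBES. Ly6g6f and Tmeff2 were near it (edgeR adjusted p of 0.0622 and 0.0638), and Zfp931 was further off (0.103). With the block Tppp, Ly6g6f and Tmeff2 passed (0.0196, 0.0414 and 0.0319) and Zfp931 did not.

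Sterol synthesis genes were lower on balance, with no single call. Of 26 tested cholesterol biosynthesis genes 0 passed in edgeR and 4 in DESeq2, 25 were negative, 15 had an unadjusted p under 0.05 in that direction, against 3.61% of all genes, and the median log2 fold change was -0.82. It lay between -0.99 and -0.66 when any 1 of the 6 libraries was left out. Mvd, which makes isopentenyl pyrophosphate, stood at 34.5, 64.4 and 86.6 CPM in sham and at 17.4, 16.2 and 30.5 in SBES (edgeR adjusted p = 0.103; 0.0169 with the block). Dhcr7, which completes the pathway, stood at 19.1, 18.9 and 25.5 CPM in sham and at 8.91, 7.49 and 11.4 in SBES (0.113; 0.0288 with the block), and Msmo1 was 0.385 times the sham level (0.117; 0.0481 with the block). With the block 4 members passed. As values, the untrained libraries were at the SBES level: the list's median was -0.66 in untrained against sham and -0.09 in SBES against untrained.

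Nuclear-encoded genes of the respiratory chain were negative in 73 of 74 tested, with 0 called by edgeR or DESeq2, 3 at an unadjusted p under 0.05 and a median of -0.41. That median rested on Sham 1: without it 50 were negative and the median was -0.10.

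Inflammation and repair genes were positive on balance and mostly not called. Lcn2, lipocalin 2, a secreted iron-binding protein of reactive astrocytes, stood at 41.6, 11 and 7.03 CPM in sham and at 129, 138 and 632 in SBES, 15.3-fold apart at an edgeR adjusted p of 0.0521 (0.0407 with the block). Its log2 fold change of 3.93 was 2.77 without SBES 3 and 5.08 without Sham 1. Of 18 tested reactive astrocyte genes 0 passed in edgeR (6 at an unadjusted p under 0.05, and 4 passed in DESeq2) and 15 were positive, with a median of 0.68 that ran from 0.45 without Sham 2 to 1.31 without Sham 1. Without the number 1 libraries 9 passed, all higher, in a fit where 581 of 16210 genes passed. Serpina3n and Srgn were 3.30-fold and 2.36-fold higher. The summed level of the reactive list was 266 to 612 CPM in sham and 796, 856 and 2244 in SBES 1, 2 and 3, while Gfap, the astrocyte filament gene, overlapped between the groups (log2 0.37 ± 0.45). Of 22 interleukin 6, STAT3 and C/EBP genes 0 passed in edgeR (8 at an unadjusted p under 0.05, and 4 passed in DESeq2) and 19 were positive (median 0.72), led by Cebpd, Il6ra (3.59-fold) and Cebpb (4.24-fold; edgeR adjusted p = 0.145, or 0.0461 with the block). Cebpb stood at 24, 29 and 97 CPM in SBES against 11.4 to 12.1 in sham, and its log2 fold change of 2.08 was 1.16 without SBES 3. That of Cebpd was 1.91 without SBES 3 against 3.12. Of 35 axon regeneration associated genes Klf9 passed and 29 were positive (median 0.49), with Ecel1, a metalloprotease induced by nerve injury, 2.53-fold higher (edgeR adjusted p = 0.0622; 0.0193 with the block).

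Complement genes were positive in 15 of 17 tested, with 0 called by edgeR (7 at an unadjusted p under 0.05, and 2 called by DESeq2) and a median of 1.13 that lay between 0.64 without SBES 3 and 1.67 without Sham 1. Their groups mostly overlapped: 2 of the 17, C1ra among them, had all SBES libraries above sham, against 7.1% of all genes. C1ra, a protease of the classical pathway, was 6.13-fold higher from under 0.5 CPM (edgeR adjusted p = 0.0997; 0.0458 with the block), and C5ar1, the anaphylatoxin receptor, was 4.54-fold higher (edgeR adjusted p = 0.182). Microglia markers, several of which are complement genes, had a summed level of 1162 to 3189 CPM in sham, highest in Sham 1, and 1572 to 4839 in SBES, highest in SBES 3. All 22 were detected in each library and 14 were positive (median 0.15, from -0.02 without SBES 3 to 0.53 without Sham 1). In edgeR and DESeq2 0 passed, and at an unadjusted p under 0.05 there were 3 higher and 2 lower. The complement genes C1qa and C1qb were 2.41-fold and 2.38-fold higher and Gpr34, a homeostatic microglial receptor, was 0.577 times the sham level (edgeR adjusted p of 0.439, 0.379 and 0.361). Without the number 1 libraries of all groups, 10 of the 22 microglia markers and 10 of the 17 complement genes passed, all higher, with medians of 0.73 and 1.76. In that fit, chosen after the data were seen, 581 of 16210 genes passed, 80% of them higher. The part of microglial content in the complement values was not tested.

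The untrained group shows where unstimulated injured motoneurons stood for the 55 called genes. The untrained mean lay between the sham and SBES means in 54, the exception being Cox7a1. For the 43 higher genes the median log2 fold change over sham was 1.06 in untrained and 2.45 in SBES, and for the 12 lower genes -1.27 and -2.21. Untrained and sham libraries did not overlap in 44 of the 55, against 9.76% of all genes, and SBES and untrained did not overlap in 43, against 10.4%. These genes were chosen for a large distance between SBES and sham, and each comparison shares a group with the other, so neither count is independent support. At an adjusted p of 0.05 in edgeR, 0 genes passed in untrained against sham (707, or 4.45%, at an unadjusted p under 0.05, smallest adjusted p = 0.184) and 0 in SBES against untrained (854, or 5.37%, smallest adjusted p = 0.456).

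Genes differed in how they fell between the groups. For Setdb2, Cdkn1a, Nfkbia and Zfp36 most of the distance lay between untrained and SBES: the log2 fold changes of SBES over untrained were 3.55, 2.66, 1.73 and 1.72, and those of untrained over sham were 0.30, 0.87, 0.49 and 0.43. For Hif3a, Ada, Itga5 and Calca most of it lay between sham and untrained, with 2.65, 1.98, 2.33 and -2.39 there and 0.78, 0.82, 0.91 and -0.15 from untrained to SBES. These 8 examples were chosen after their values were seen. In the glucocorticoid list the median was 0.73 in untrained over sham and 1.55 in SBES over untrained.

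**Figure D4:**
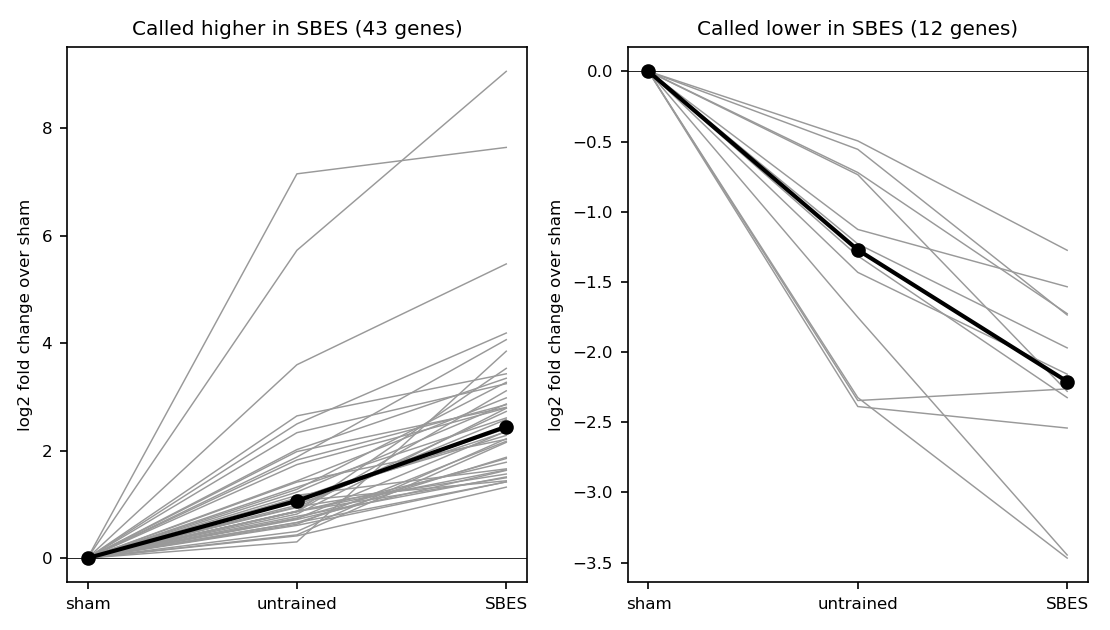
Log2 fold change over sham in untrained and SBES for the 43 genes called higher (left) and the 12 called lower (right), 1 grey line per gene with the median in black. The black line passes 1.06 and 2.45 on the left and -1.27 and -2.21 on the right. Sham is 0 by construction, and the genes were chosen for a large distance between SBES and sham.

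The 3 SBES libraries were not alike in the level of the called genes. SBES 3, the 20 Hz library, was the highest of the SBES libraries in 34 of the 43 higher genes, SBES 2 in 7 and SBES 1 in 2. The ratio of SBES 3 to the mean of the other SBES libraries had a median of 1.69 over these genes, ran from 0.658 for Per1 to 4.55 and reached 2 or more in 13. Markers of reactive astrocytes and microglia were also highest in SBES 3, as given above, and frequency, cell content and library cannot be told apart with 1 library each. Among the untrained libraries, which had no stimulation, number 3 was likewise the highest for most of the 43 genes. Plin4 stood there at 1.39, 3.23 and 11.8 CPM and Cdkn1a at 82.2, 60.4 and 226, while Klf9 went otherwise (54.5, 76.4 and 66.1). The share of all genes tested that were highest in SBES 3 was not computed. All 55 genes kept their direction when SBES 3 was left out, which was largely fixed, as SBES and sham did not overlap in any of them. Without SBES 3 the fitted fold change of Cdkn1a, Gata2, Tma16 and Zbtb16 moved by over 1.5 times, to 6.05, 2.98, 4.46 and 4.14. That of Slc10a6 did too, and it has no finite fold over a sham group at 0. Without Sham 2 that of Setdb2 was 24.1, and without SBES 2 that of Gkn3 was 0.0543.

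**Figure D5:**
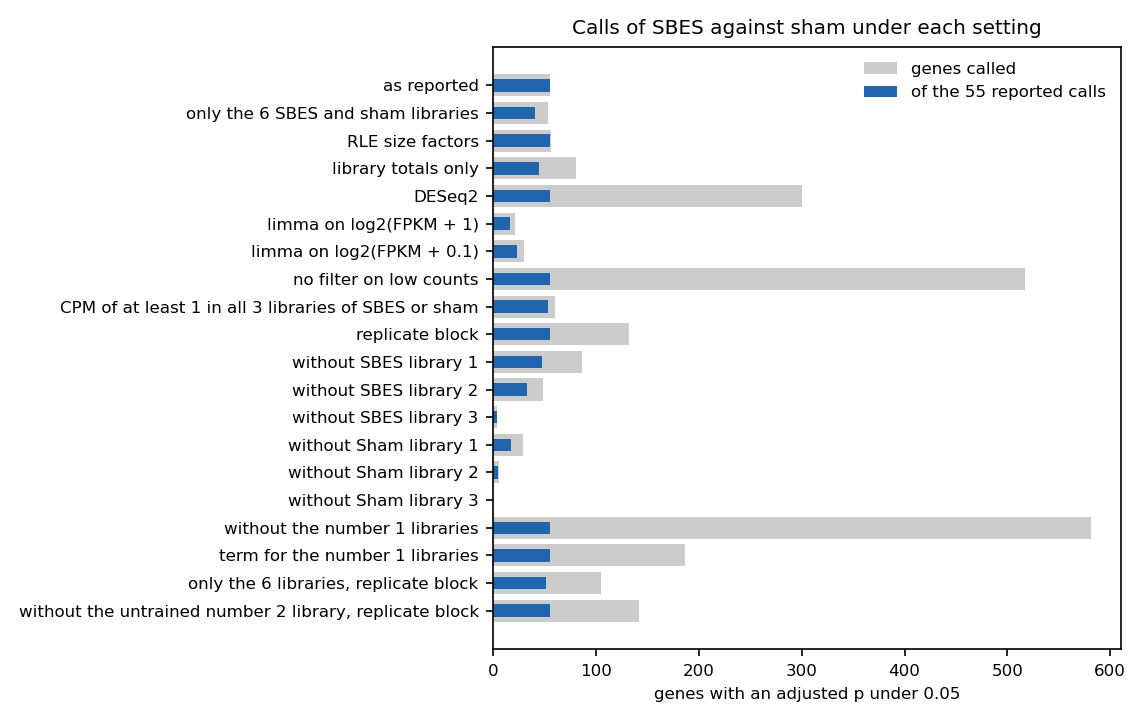
Number of genes with an adjusted p under 0.05 in SBES against sham under each setting (grey bars), with the number shared with the 55 reported calls in blue. Leaving out SBES 3, Sham 2 or Sham 3 left 4, 6 and 0 calls, and leaving out the number 1 libraries of all groups gave 581, which included all 55.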

How the data were processed

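RNA of labelled spinal motoneurons was profiled by Smart-seq2 in 9 libraries, 3 each of sham, untrained and SBES. Per the labels' protocols, reads were aligned by the authors with Hisat2 2.0.1, HTSeq 0.6.1 gave the gene counts, and DESeq2 was their test. The submitters' processing notes name the build mm10. For the annotation release and strand setting, neither is given in the sources used here. One deposited table holds whole-number counts and FPKM per library. Recomputing the deposited FPKM from counts and exonic lengths gave 100% of values within 0.006. Of the gene identifiers 99.5% are in GENCODE M21. The columns of the 3 untrained libraries and of SBES 1 were matched by elimination.

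Counts were tested with edgeR 4.0.16 in R 4.3.3 (filterByExpr, TMM, 1 quasi-likelihood fit of all 9 libraries, a coefficient per group, Benjamini-Hochberg over 15893 genes, calls under 0.05). CPM uses TMM-adjusted totals. The procedure was tested on simulated data. Without molecular identifiers, PCR duplicates count as molecules, so depth covers counting error only. Same-numbered SBES and sham libraries deviated together from their group means (correlations 0.253, 0.152 and 0.134), so the block by replicate number taken from the labels is printed where it changes a call. The labels do not say that equal numbers mark a shared batch, and in SBES the number goes with the frequency. All 55 calls passed with the block, so its printed p-values are those of genes that gained a call. SBES 3 and Sham 2, of different numbers, correlated at 0.156. With the untrained library of the same number, SBES 1, 2 and 3 correlated at 0.238, -0.164 and 0.250. SBES 2 and untrained 3, of different numbers, correlated at 0.201. DESeq2 1.42.0, limma 3.58.1 on log2 of the deposited FPKM, other scalings and filters, and left-out libraries were alternatives.

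Named genes were up to 15 per direction by fold change among calls without overlap whose higher group averaged an FPKM of 5 or more, then uncalled genes by p up to the same number, the 3 of smallest p and any called member of each of 58 lists, fixed markers, and up to 20 calls of smallest p with a CPM of at least 20. Predicted genes were only counted, and not every gene so named is reported here. Genes named outside this rule were chosen after their values were seen. Members, lists and rules were chosen with earlier results of these data known. Promoter windows are RefSeq's for GRCm38.p6.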

Additional observations from a re-analysis of the deposited data

How the results depend on the processing

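All 55 calls kept their direction under every alternative in which they had a value, and their number did not hold. The SBES and sham libraries did not overlap in any of the 55, so the direction could hardly turn and is no independent support. Against 55 calls (43 higher, 12 lower), DESeq2 gave 300 (221, 79), no filter on low counts 517 (396, 121) and the replicate block 132 (91, 41). limma gave 21 (16, 5) on log2(FPKM + 1) and 30 (23, 7) on log2(FPKM + 0.1). Both limma counts were lower, sharing 16 and 23 genes with the 55. Only the 6 libraries, RLE size factors, library totals and the CPM filter gave 53, 56, 80 and 60 calls, sharing 41, 55, 44 and 53. Leaving out 1 replicate gave 0 to 86 calls, 0 to 77 higher and 0 to 9 lower. Without SBES replicate 1 the share of higher calls was 89.5% against 78.2%. Chosen after the data were seen, leaving out the number 1 libraries gave 581 (465, 116), a term for them 186 (127, 59), the replicate block in the 6 libraries 105 (71, 34), and the block without untrained 2 142 (98, 44). The cause of these differences was not tested.

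Of single genes outside the calls, the log2 fold change of Slc18a3 was -0.15 without Sham 1 (-0.15 to 0.45 over the libraries left out) and -0.22 without the number 1 libraries. That of Mbp was 0.21 (range -0.46 to 0.21) and 0.023, and that of Gfap -0.061 without SBES 3 (range -0.061 to 0.69). That of Klf10 ran from -0.38 to 0.38 over the libraries left out. For Klf10, totals only gave 0.0037, limma 0.012 and 0.050, no filter 0.0038, the replicate block 0.045, a term for the number 1 libraries 0.027, the block in the 6 libraries 0.079 and the block without untrained 2 0.046. Several list medians depended on 1 library. Without Sham 1, leukocyte markers gave 1.69 (from -0.60), red blood cell genes 1.89 (from -0.31), skeletal muscle genes 0.52 (from -0.28) and mitochondrially encoded genes 0.98 (from 0.13). Without SBES 1, the last gave -1.02 and nuclear-retained RNAs -1.28 (from 0.01). With 3 libraries per group, genes with small changes may go uncalled.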

Other observations

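Lists of genes that set how a motoneuron fires and is contacted showed small differences between SBES and sham. Of 32 tested potassium channel genes, 27 sodium, calcium and HCN channel genes, 24 glutamate receptor genes, 24 genes of GABA and glycine transmission and 25 of synaptic vesicle release, none passed in edgeR or DESeq2. At an unadjusted p under 0.05 in edgeR there were 1, 2, 1, 1 and 1 of them. The medians of these lists were 0.15, 0.11, 0.14, 0.10 and 0.03 on the log2 scale, and all but that of the potassium channel genes took either sign depending on the library left out. The 12 tested serotonin receptor genes and the 12 tested cation chloride cotransporter genes and their kinases had medians of 0.20 and 0.31, which were -0.18 and -0.08 without SBES 1, and 0 calls in edgeR (0 and 1 at an unadjusted p under 0.05) and in DESeq2.

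Interferon response genes gave different counts in the 3 comparisons. Of 32 tested, 9 were positive in SBES against sham (median -0.11, from -0.25 without Sham 2 to 0.02 without Sham 3), while 28 were positive in untrained against sham (median 0.46) and 3 in SBES against untrained (median -0.42). In SBES against sham 0 passed in edgeR, 0 in DESeq2, and 0 had an unadjusted p under 0.05. The comparisons share groups, so these values stand side by side only. Heat shock and chaperone genes were negative in 19 of 24 tested, with a median of -0.31 that lay between -0.33 and -0.21 whichever of the 6 libraries was left out, and 0 calls in edgeR (2 lower and 1 higher at an unadjusted p under 0.05). DESeq2 called 1 member, in the other direction (higher). Cytosolic ribosomal protein genes were positive in 50 of 85 (median 0.03).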
